A study of Homo sapiens with 6 samples.

Results

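Metallothioneins are short intracellular proteins in which cysteines bind zinc, copper and cadmium. Their genes lie in a cluster on chromosome 16 and are known to be switched on by zinc and cadmium through the zinc-sensing transcription factor MTF1, and by glucocorticoids and oxidative stress. The genes described here were chosen by symbol, as the human metallothionein 1 and 2 genes MT1A, MT1E, MT1F, MT1G, MT1M, MT1X and MT2A. Of these 7 genes, 4 were analysed, MT2A, MT1X, MT1A and MT1F, among 32192 genes in the count table and 31951 in the FPKM table. MT1E, MT1G and MT1M were not analysed here.

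The values come from A549, an established epithelial line from a human lung adenocarcinoma. The 3 APEX1-OE libraries were made from cells given a pIRES-hrGFP-1a plasmid carrying the APEX1 cDNA with a FLAG tag, and the 3 Ctrl libraries from cells given the control plasmid. No metal or steroid treatment is named for either group, and both received plasmid DNA. Nothing in the labels says that replicates came from separate cultures, so p-values measure only the spread between these libraries. APEX1 is a base excision repair endonuclease that also keeps several transcription factors in a reduced, DNA-binding state.

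APEX1, the targeted gene, was higher in APEX1-OE, at 689 ± 75.7 FPKM against 126 ± 2.50 FPKM (SD, n = 3 each). FPKM is fragments scaled to transcript length and to the number of mapped fragments. The keratin genes KRT8, KRT18 and KRT7, which mark epithelial cells, lay at 1550 FPKM or above in every library, while the epithelial adhesion gene EPCAM stayed at or below 0.52 FPKM. Of the other epithelial markers listed, KRT19 lay between 67.4 and 106 FPKM and CDH1 between 4.52 and 10.7 FPKM. Endothelial markers summed to at most 0.04 FPKM, fibroblast markers to at most 0.84 FPKM and leukocyte markers to at most 3.23 FPKM, nearly all of the last from CD14. The sums cover 3 of 4 listed fibroblast markers and 4 of 5 listed leukocyte markers. Total counts lay between 28131955 and 41009197. The first principal component of log2 CPM, counts scaled to library size, held 72.6% of the variance and put APEX1-OE replicate 1 and Ctrl replicates 1 and 2 on one side, called side A here. APEX1-OE replicates 2 and 3 and Ctrl replicate 3 lay on side B. This division crosses the conditions, and its origin was not tested.

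The coding sequences are shown because they carry the cysteines that bind metal and because their likeness bears on how reads are assigned. Each of the 3 coding sequences below, taken from the canonical transcripts of GENCODE release 44, has 186 bases, and the capitals mark in-frame TGC or TGT, the codons for cysteine.
MT2A: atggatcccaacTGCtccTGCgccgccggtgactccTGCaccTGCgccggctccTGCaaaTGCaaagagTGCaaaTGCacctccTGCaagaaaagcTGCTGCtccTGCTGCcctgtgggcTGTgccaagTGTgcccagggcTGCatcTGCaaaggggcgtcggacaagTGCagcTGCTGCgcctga
MT1X: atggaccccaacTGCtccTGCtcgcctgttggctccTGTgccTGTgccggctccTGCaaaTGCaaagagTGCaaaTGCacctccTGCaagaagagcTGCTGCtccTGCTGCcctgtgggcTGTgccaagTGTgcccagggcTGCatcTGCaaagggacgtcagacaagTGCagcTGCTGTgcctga
MT1F: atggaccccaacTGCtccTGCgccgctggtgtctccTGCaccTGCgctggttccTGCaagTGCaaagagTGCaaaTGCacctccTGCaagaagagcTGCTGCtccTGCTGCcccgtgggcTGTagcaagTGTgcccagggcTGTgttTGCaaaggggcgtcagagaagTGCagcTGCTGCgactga
Every one of them held 20 cysteine codons among 62, at the same positions in all 3 genes. Base identity between pairs ran from 88.7% for MT1F with MT1X (21 differing bases) to 92.5% for MT2A with MT1X (14 differing bases). The choice between the 2 cysteine codons differed, with 5 TGT in MT1X, 3 in MT1F and 2 in MT2A.

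Because the deposited values rest on uniquely mapped reads aligned with up to 4 mismatches, each transcript was cut into all windows of 150 bases, the read length, and compared with the annotated transcripts of the other metallothionein genes and pseudogenes. No window of MT1A, MT1F, MT1X or MT2A was identical to another locus. In MT2A, 34 of 252 windows (13.5%) lay within 4 mismatches of another locus, the closest at 2 mismatches. In MT1X, MT1A and MT1F no window did, and the closest lay at 5, 7 and 8 mismatches. Shorter windows were not compared, although the authors trimmed reads and dropped only those under 16 nt. How many reads of MT2A, MT1X, MT1A or MT1F were shared with a copy was not tested, and their values are uncertain to that extent.

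In the cluster, levels differed far more between genes than between conditions. All 4 genes are transcribed from the plus strand (GRCh38), and MT2A lies at chr16:56608584-56609497, MT1A at chr16:56638666-56640087, MT1F at chr16:56657731-56660698 and MT1X at chr16:56682470-56684196. Their canonical transcripts have 3 exons each, with 401, 396, 425 and 404 bases in the same order. MT2A, the main metallothionein of many tissues, ranked 115 of 31951 genes by mean FPKM over the 6 libraries. MT1X ranked 921, MT1A 3870 and MT1F 7125. The order MT2A, MT1X, MT1A, MT1F held in all 6 libraries without overlap, since the lowest MT2A value was 359 FPKM, MT1X ran from 45.0 to 74.4 FPKM, MT1A from 9.29 to 13.2 FPKM and MT1F from 3.46 to 4.88 FPKM. Of the FPKM summed over the 4 genes, MT2A held between 82.6% and 89.0% in each library.

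The distance between genes depends on the length used for the FPKM. The deposited FPKM imply a length for MT1A of 0.420 times that of MT2A, where the canonical transcripts give 0.988 times. For MT1F the implied length was 0.739 times that of MT2A against 1.06, and for MT1X 0.828 against 1.01. With CPM per kilobase of canonical transcript, MT2A stood at 1380, MT1X at 149, MT1A at 15.0 and MT1F at 8.52 on average over the 6 libraries. MT2A was thus 92.0 times MT1A on that scale and 39.3 times on the deposited scale, while the order of the 4 genes was the same. Comparisons of 1 gene between libraries are not touched by this.

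**Figure D1:**
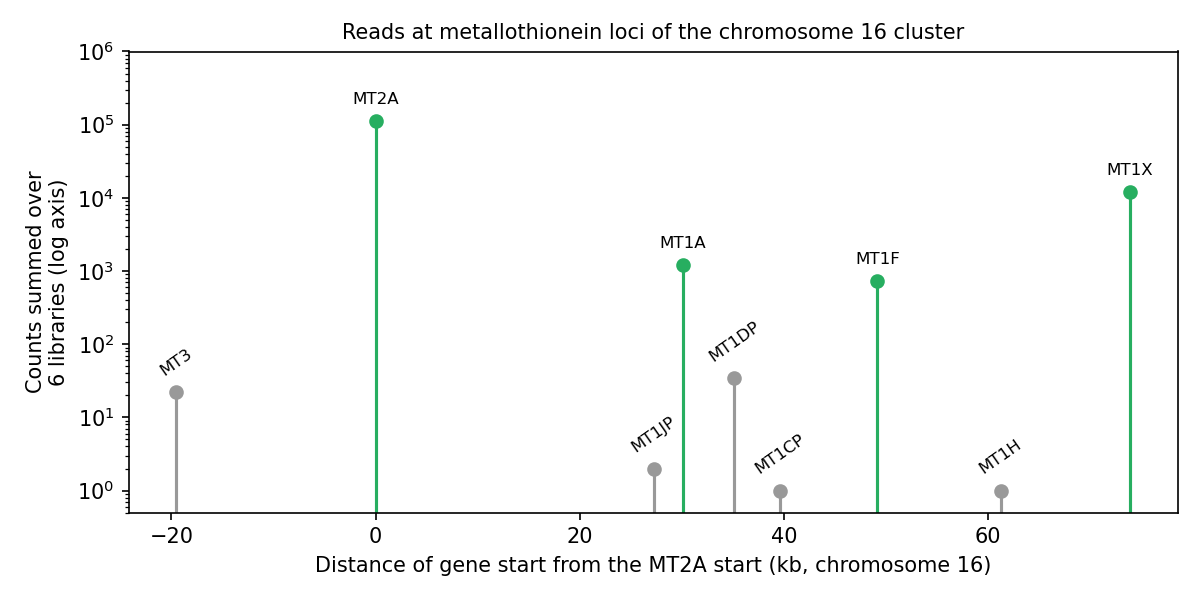
Counts summed over the 6 libraries (log axis) against the distance of each gene start from the MT2A start in kb, for the metallothionein loci of chromosome 16 with a count, genes analysed in depth in green and other loci in grey. MT2A and MT1X, 73.9 kb apart, hold most of the counts shown. Of the loci shown between them, all but MT1A and MT1F hold at most 34 counts each. MT1E, MT1G and MT1M were not analysed and are not shown.

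The 8 other loci of the family that were examined were close to silent. MT1E, MT1G and MT1M are not among them, and their level is not known here. MT3, the brain metallothionein, had 22 counts over the 6 libraries and MT1H had 1. Among the pseudogenes of the cluster, MT1DP had 34 counts, MT1JP 2 and MT1CP 1. The processed pseudogenes MT1XP1 on chromosome 1, MT1P3 on chromosome 20 and MT1P1 on chromosome 9 had 12, 13 and 10 counts. None of these 8 loci passed the filter on low counts, so none was tested, and at these counts no difference between the conditions was detectable.

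The promoter sequences of MT2A and MT1X, the highest members, are shown with that of MT1H, which lies between MT1F and MT1X and had 1 count. They are the 250 bases before the gene start in RefSeq (GRCh38.p14, plus strand), at chr16:56608334-56608583, chr16:56682220-56682469 and chr16:56669564-56669813. RefSeq promoter entries matched 2 of the 7 genes, MT2A and MT1X. Capitals mark the core of the metal response element, the site of MTF1, searched as TGCACNC and TGCGCNC on both strands.
MT2A: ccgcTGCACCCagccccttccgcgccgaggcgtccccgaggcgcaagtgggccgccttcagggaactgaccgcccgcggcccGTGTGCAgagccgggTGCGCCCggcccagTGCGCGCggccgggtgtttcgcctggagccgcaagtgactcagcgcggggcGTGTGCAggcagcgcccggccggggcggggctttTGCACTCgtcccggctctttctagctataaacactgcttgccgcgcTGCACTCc
MT1X: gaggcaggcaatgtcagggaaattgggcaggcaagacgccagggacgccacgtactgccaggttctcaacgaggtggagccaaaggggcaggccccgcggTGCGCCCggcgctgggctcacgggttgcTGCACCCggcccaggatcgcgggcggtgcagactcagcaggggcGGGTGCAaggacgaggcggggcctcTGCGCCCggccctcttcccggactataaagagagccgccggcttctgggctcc
MT1H: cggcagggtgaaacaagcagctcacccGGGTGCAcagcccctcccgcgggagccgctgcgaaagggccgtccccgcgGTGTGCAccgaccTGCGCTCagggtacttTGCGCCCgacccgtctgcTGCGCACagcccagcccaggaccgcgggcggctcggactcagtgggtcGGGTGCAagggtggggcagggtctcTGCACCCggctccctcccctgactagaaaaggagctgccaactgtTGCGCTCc
The core matched 7 times in MT2A, 4 times in MT1X and 8 times in MT1H. Of 35116 promoters cut to the same length, 24.8% held at least 1 match, 1.58% at least 3 and 0.120% at least 5. The number of matches thus did not order these 3 genes by their level. A TATAAA box stood on the plus strand in MT2A from base -29 to -24 and in MT1X from base -30 to -25, counted from the gene start. MT1H had no match to it. The share of promoters with TATAAA at any position of the 250 bases, on either strand, was 10.7%, and its share near base -30 was not counted. MT2A also held TGACTCA at base -104 to -98, a match to TGANTCA, the AP-1 site, which 6.57% of promoters held on either strand. That match overlaps one to TGACNNNGC, the core of the antioxidant response element, which 10.9% of promoters held on either strand. MT1X held this core once, on the minus strand, at base -243 to -235.

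The question put to these libraries was whether metallothionein transcripts differed when APEX1 was overexpressed. None of the 4 genes passed the 0.05 threshold on the adjusted p of edgeR's quasi-likelihood test, which 0.00589% of the 16971 tested genes did, APEX1 alone (log2 fold change 2.42, adjusted p = 0.00809). None reached an unadjusted p under 0.05 either, against 0.695% of tested genes. The groups overlapped for all 4 in CPM, whereas 1.38% of tested genes had every APEX1-OE value above every Ctrl value and 2.01% had every value below. The median log2 fold change of all tested genes was 0.03.

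**Figure D2:**
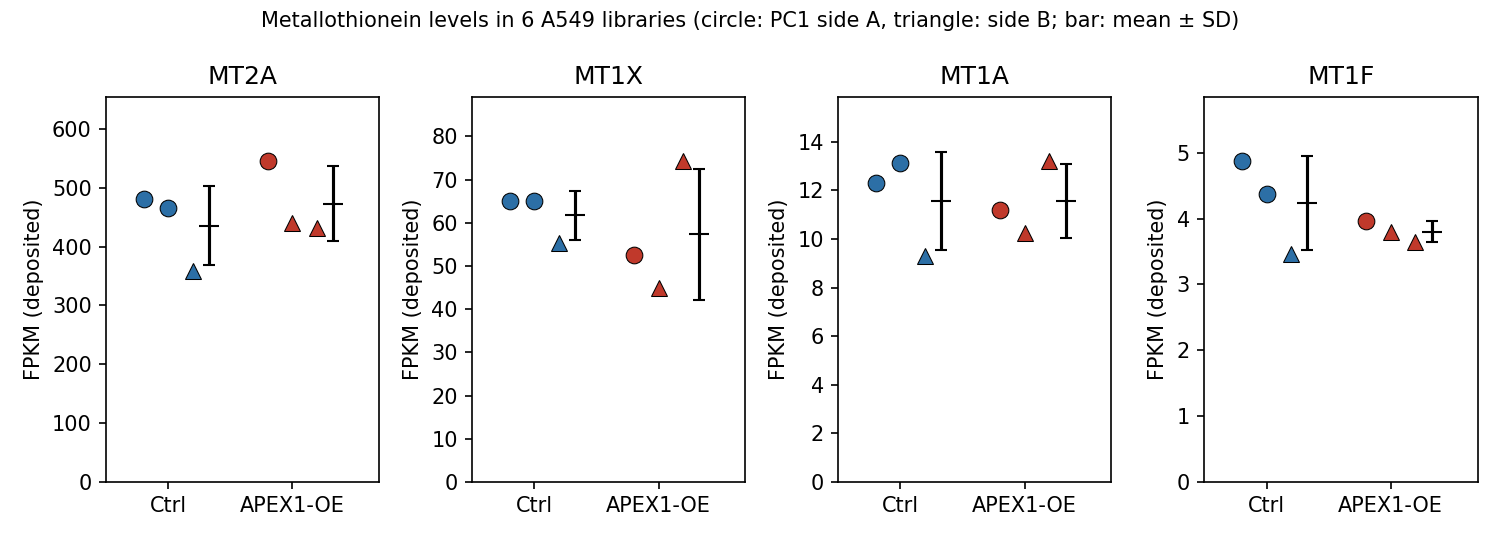
Deposited FPKM of each of the 4 genes in the 3 Ctrl (blue) and 3 APEX1-OE (red) libraries, circles for side A and triangles for side B of the first principal component, bars for mean ± SD. The groups overlap in every panel, and for MT2A the triangles lie below the circles.

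MT2A stood at 546, 440 and 432 FPKM in the APEX1-OE libraries, and at 481, 466 and 359 FPKM in the Ctrl libraries, each in the order of replicates 1 to 3, as for the genes below. APEX1-OE replicate 1 was the highest library and Ctrl replicate 3 the lowest, and between them both other Ctrl libraries lay above both other APEX1-OE libraries. Means were 473 ± 63.7 FPKM in APEX1-OE and 436 ± 66.8 FPKM in Ctrl (SD, n = 3 each, exact two-sided permutation test p = 0.6, where 0.1 is the smallest p that 3 against 3 allow). Behind them were between 16125 and 21596 counts a library, so counting error was at most 0.787%. The log2 fold change was 0.11 (standard error 0.244, adjusted p = 1.0 from the edgeR test), with a 95% interval from 0.731-fold to 1.60-fold. The sign rested on single libraries, as the log2 fold change was -0.12 without APEX1-OE replicate 1 and -0.05 without Ctrl replicate 3.

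MT1X, an inducible form with a wide tissue range, stood at 52.5, 45.0 and 74.4 FPKM in the APEX1-OE libraries, and at 65.0, 65.1 and 55.3 FPKM in Ctrl. The highest library and both lowest were APEX1-OE libraries, so the spread within APEX1-OE covered the whole of Ctrl. The mean was 57.3 ± 15.3 FPKM in APEX1-OE and 61.8 ± 5.66 FPKM in Ctrl (SD, n = 3 each, exact two-sided permutation test p = 0.6). Its log2 fold change was -0.14 (standard error 0.238, adjusted p = 1.0 from the edgeR test), with a 95% interval from 0.622-fold to 1.33-fold. Without APEX1-OE replicate 2 it was 0.03.

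MT1A, a form with a narrower tissue range, stood at 11.2, 10.2 and 13.2 FPKM in the APEX1-OE libraries, and at 12.3, 13.1 and 9.29 FPKM in Ctrl. The group means were nearly the same, at 11.6 ± 1.53 FPKM in APEX1-OE and 11.6 ± 2.02 FPKM in Ctrl (SD, n = 3 each, exact two-sided permutation test p = 1.0). Its log2 fold change was -0.03 (standard error 0.261, adjusted p = 1.0 from the edgeR test), with a 95% interval from 0.647-fold to 1.49-fold. The sign turned in 7 of 16 alternative settings. With 170 to 233 counts a library, counting error was between 6.55% and 7.67%.

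MT1F was the lowest, at 3.97, 3.79 and 3.65 FPKM in the APEX1-OE libraries, and at 4.88, 4.37 and 3.46 FPKM in Ctrl. Ctrl replicates 1 and 2 lay above all APEX1-OE libraries and Ctrl replicate 3 below them. Means were 3.80 ± 0.160 FPKM in APEX1-OE and 4.24 ± 0.719 FPKM in Ctrl (SD, n = 3 each, exact two-sided permutation test p = 0.4). Its log2 fold change was -0.17 (standard error 0.260, adjusted p = 1.0 from the edgeR test), with a 95% interval from 0.587-fold to 1.35-fold. It was -0.34 when Ctrl replicate 3 was left out and -0.30 when APEX1-OE replicate 1 was, against -0.09 for leaving out APEX1-OE replicate 3 and -0.05 for Ctrl replicate 1. At 106 to 138 counts a library, counting error alone was between 8.51% and 9.71%.

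**Figure D3:**
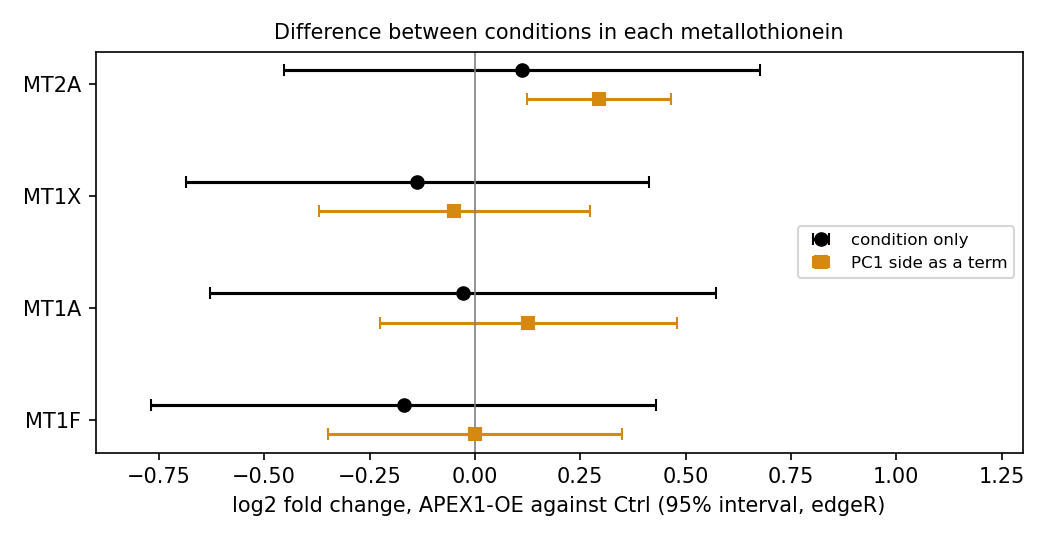
Log2 fold change of APEX1-OE against Ctrl with its 95% interval from edgeR for each gene, without other terms (black circles) and with the library side (PC1 side) as a term (orange squares). All 4 black intervals cross 0, and with the term the interval of MT2A runs from 0.12 to 0.47. The sides were drawn from the same counts, and MT2A was not called in that fit (adjusted p = 0.350 from the edgeR test).

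Summed over the 4 genes, TMM-normalized CPM were 817, 560 and 564 in the APEX1-OE libraries and 683, 676 and 471 in the Ctrl libraries. APEX1-OE replicate 1 was again the highest and Ctrl replicate 3 the lowest. The log2 ratio of the group means was 0.09, given with no test, and it turned to -0.12 without APEX1-OE replicate 1 and to -0.07 without Ctrl replicate 3. With other single libraries left out it was at most 0.18. With all libraries but without MT2A the ratio was -0.13. The balance between MT2A and MT1X also varied within APEX1-OE, where MT2A was 10.4, 9.78 and 5.81 times MT1X by FPKM in replicates 1, 2 and 3, against 7.40, 7.17 and 6.49 times in Ctrl.

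In TMM-normalized CPM, MT2A, MT1A and MT1F did not overlap between the sides of the first principal component, whereas they overlapped between the conditions. In CPM, MT2A stood at 746 in the APEX1-OE library and at 604 and 595 in the Ctrl libraries of side A, and on side B at 509 and 485 in APEX1-OE and at 411 in Ctrl. MT1A lay between 6.45 and 7.07 CPM on side A and between 4.48 and 6.27 on side B. Its separation depended on the TMM factors. In CPM without them MT1A was at 5.865 in APEX1-OE replicate 1 on side A and at 6.613 in APEX1-OE replicate 3 on side B. By deposited FPKM its highest library, APEX1-OE replicate 3 at 13.22 FPKM, also lay on side B. MT1F lay between 4.02 and 4.54 CPM on side A and between 2.93 and 3.25 on side B. For MT1X the sides overlapped, at 59.6 to 69.0 CPM and 43.2 to 69.4 CPM. These are descriptions, since the sides were drawn from the same counts. The share of all tested genes separated by side was not counted, so the separation is not shown to be particular to these genes.

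Within each side the MT2A values just given were higher in APEX1-OE than in Ctrl. With the side as a term, a setting known from earlier results of these data, the log2 fold change of MT2A was 0.30 (standard error 0.0800, unadjusted p = 0.00229 and adjusted p = 0.350 from the edgeR test), with a 95% interval from 1.09-fold to 1.38-fold. MT2A was not called in that fit, in which 11.6% of tested genes had an unadjusted p under 0.05. MT1A was then at 0.13, MT1F at 0.00028 and MT1X at -0.05, with unadjusted p of 0.455, 0.999 and 0.752 in the edgeR test.

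**Figure D4:**
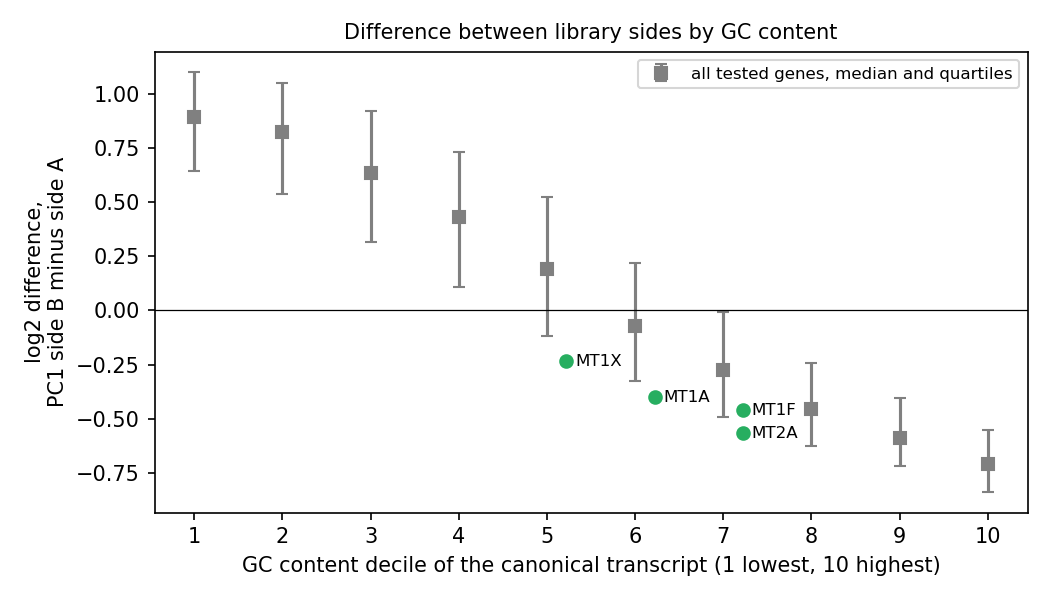
Log2 difference of side B minus side A against the GC content decile of the canonical transcript, median and quartiles over all tested genes in grey and the 4 metallothioneins in green. The median falls from 0.89 in the lowest decile to -0.71 in the highest, and the 4 genes lie below the median of their deciles.

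The difference between the sides followed GC content over all genes, and the 4 metallothioneins lay below the median of genes of like GC content, MT1F within the quartiles of its decile and the other 3 below the lower quartile. In the fit with both terms, side B was below side A by a log2 difference of -0.57 for MT2A and -0.46 for MT1F. Both transcripts lie in the seventh GC decile (55.6% and 52.9% GC), whose median difference was -0.27 (quartiles -0.49 and -0.01). MT1A, at 50.5% GC, differed by -0.40 where its decile had a median of -0.07 and a lower quartile of -0.32. MT1X, at 49.3% GC, differed by -0.23 where its decile had a median of 0.19 and a lower quartile of -0.12. Whether GC content, transcript length or another feature accounts for these values was not tested.

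Genes that act with the metallothioneins were examined in lists, and none of their 62 tested members was called by the edgeR test (smallest adjusted p = 1.0) or reached an unadjusted p under 0.05. Over all tested genes the shares were 0.00589% and 0.695%. Among 6 transcription factors known to act on metallothionein promoters, the median log2 fold change was 0.13. The glucocorticoid receptor gene NR3C1 was the highest at 0.30 (standard error 0.447) and USF1 the lowest at -0.03 (standard error 0.242), with MTF1, the zinc sensor, at 0.21 (standard error 0.320). Most but not all SLC30 transporters move zinc out of the cytosol, and 7 genes of the family were tested with a median of 0.16. SLC30A9 was the highest at 0.30 and SLC30A3 the lowest at -0.17, and SLC30A1, the plasma membrane exporter that MTF1 induces, was at 0.29 (standard error 0.400). The SLC39 family brings zinc into the cytosol, and its 11 tested genes had a median of -0.0037, between 0.35 for SLC39A10 and -0.17 for SLC39A11.

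Of the copper-handling genes 14 were tested, with a median of -0.01, the metalloreductase STEAP2 the highest at 0.33 and COMMD1, a factor in copper export, the lowest at -0.18. COMMD1 alone among the 14 had every APEX1-OE value below Ctrl, as 2.01% of all tested genes had. The list of genes induced by cadmium and electrophiles held 11 tested genes with a median of -0.0053. The cystine transporter gene SLC7A11 was the highest at 0.40 (standard error 0.409), and the heat shock gene HSPA1B the lowest at -0.25 (standard error 0.186). HSPA1B has a near-identical copy, HSPA1A, and how reads were divided between them was not tested. Among 13 glucocorticoid-induced genes the median was 0.08, with BIRC3 the highest at 0.63 (standard error 0.440) and CEBPD the lowest at -0.16. ZBTB16, at 0.29, was the one member of the 13 with every APEX1-OE value above Ctrl, as 1.38% of all tested genes had. With the library side as a term no list gene was called and 12 of the 62 had an unadjusted p under 0.05, where 11.6% of all tested genes had one. In that fit the medians of the transcription factors and of the SLC30 genes turned to -0.06 and -0.09.

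**Figure D5:**
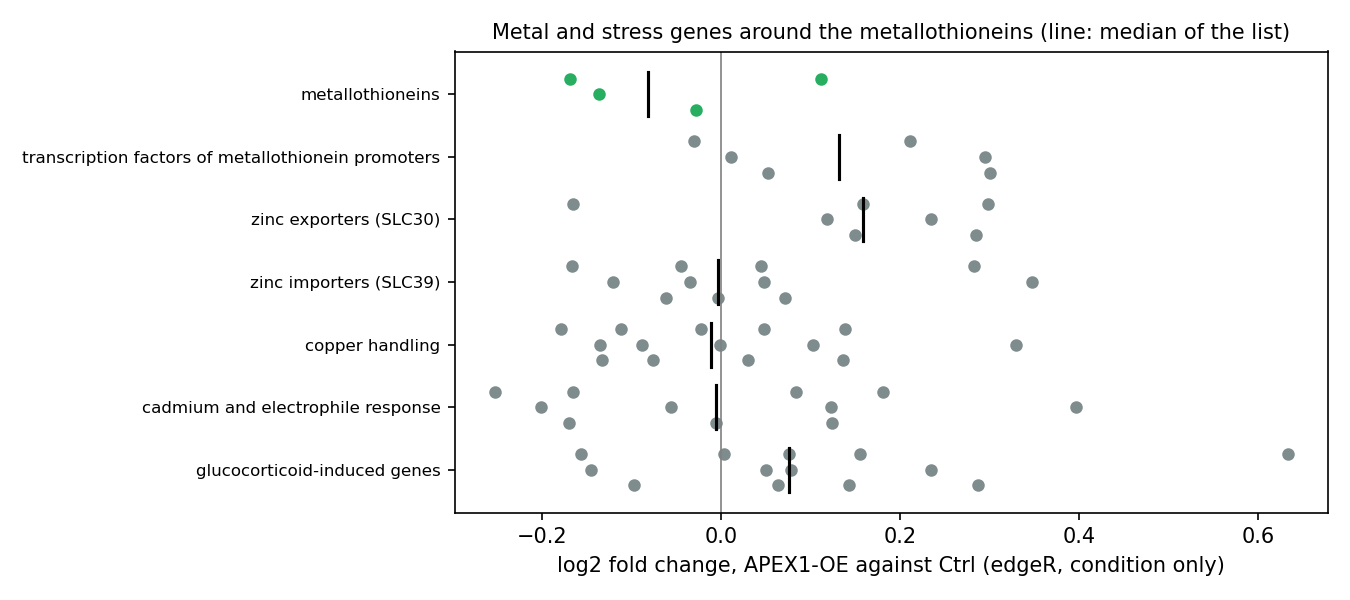
Log2 fold change of APEX1-OE against Ctrl from edgeR for the 4 metallothioneins (green) and for each tested gene of 6 lists (grey), with the median of each list as a black line. Values lie between -0.25 and 0.63, and no gene shown was called.

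The summed metallothionein CPM is mostly MT2A, for example 746 of 817 in APEX1-OE replicate 1 and 411 of 471 in Ctrl replicate 3. Likeness to the sum is thus mainly likeness to MT2A. By the pattern of the sum over the 6 libraries, the most alike of 8917 genes at a mean of at least 10 CPM were ZFYVE19, TNIP2, TONSL, TAX1BP3 and SLC45A3. Their Pearson r with the log2 sum lay between 0.995 and 0.998 over 6 libraries, which share the division into sides. An r above 0.9 was reached by 2504 of the 8917 genes, so this likeness is common in these libraries. Among the members themselves r ran from 0.339 for MT2A with MT1X to 0.824 for MT2A with MT1F, over the same 6 libraries.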

How the data were processed

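RNA-seq of 3 APEX1-OE and 3 Ctrl libraries of A549 cells was analysed, grouped by the sample titles. The authors cleaned the reads by quality, adaptor and length, with the FASTX-Toolkit among the tools, and used tophat2 with a limit of 4 mismatches against GRCh38. The deposited raw counts per gene and the deposited FPKM rest on the uniquely mapped part. Which counting tool, annotation and strand setting gave them is not given in the sources used. Libraries were stranded and paired-end, and total counts lay between 28131955 and 41009197.

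Genes were kept by edgeR's filterByExpr (minimum count 10, minimum total 15), which left 16971, and normalized by TMM. They were tested with edgeR's quasi-likelihood test (robust, condition as the only term) with Benjamini-Hochberg adjustment over all of them at 0.05, with edgeR 4.0.16 (R 4.3.3). DESeq2 1.42.0 and limma 3.58.1 served for alternatives. FPKM means were compared by exact permutation tests. Standard errors were the log2 fold change divided by the root of F. The fitting code was first tested on simulated data. GENCODE release 44 gave coordinates, coding sequences and GC content (98.7% of tested genes), matched by gene identifier without its version, and RefSeq gave promoters. The coding sequence of 1 member is not reported here. Counting errors cover counting only.

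Named genes were the analysed members, APEX1, other metallothionein loci with a count, MTF1, SLC30A1, called genes and the highest and lowest gene of each list, and the 5 genes most alike in pattern. COMMD1 and ZBTB16 are also named for groups that do not overlap, chosen after their values were seen. The members and lists were chosen with earlier results of these data known. Alternatives covered DESeq2, RLE and upper-quartile factors, a fit that is not robust, no filter, limma on the log2 of FPKM with pseudocounts of 1 and 0.1, leaving out each library, the replicate number as a block and the side of the first principal component as a term.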

Additional observations from a re-analysis of the deposited data

How the results depend on the processing

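None of the 4 metallothioneins was called under any of 16 alternatives, and the adjusted p was at its lowest for MT2A at 0.350. The log2 fold change turned sign for MT2A in 2 alternatives, for MT1X in 1, for MT1F in 1 and for MT1A in 7. MT1A was at 0.0032 in limma on log2(FPKM + 1), with or without a filter, at 0.0041 with a pseudocount of 0.1 and at 0.13 with the library side as a term, where MT1F was at 0.00028. With each library left out in turn, MT1A ran from -0.20 to 0.10, MT2A from -0.12 to 0.22, MT1X from -0.30 to 0.031 and MT1F from -0.34 to -0.05. The cause was not tested. Among all genes, 1 was called, against 10 (7 higher, 3 lower) when low counts were kept, 4 with the library side as a term, 2 with the replicate number as a block, and between 0 and 1 with each library left out, the 0 arising without APEX1-OE replicates 2 or 3 or Ctrl replicates 1 or 2. Deviations of same-numbered libraries correlated at 0.607, -0.521 and 0.700 across genes, and 3 of 6 libraries correlated best with their own number. APEX1-OE replicate 2 and Ctrl replicate 2 lie on different sides, so these values cannot decide whether the replicate numbers pair the libraries. With the replicate block 561 genes had an unadjusted p under 0.05, and MT2A, MT1X, MT1A and MT1F were at 0.11, -0.15, -0.01 and -0.16. No list had a called gene in the alternatives run for the lists. APEX1 itself lost its call without APEX1-OE replicates 2 or 3 (adjusted p = 0.118 and 0.0674 from the edgeR test) or Ctrl replicates 1 or 2 (0.210 and 0.207), while its log2 fold change lay between 2.36 and 2.46 over all 16 alternatives. The summed level without MT1E was not run. Counting error was at most 0.787% for MT2A, 2.52% for MT1X, 7.67% for MT1A and 9.71% for MT1F. Standard errors of the log2 fold change were 0.244, 0.238, 0.261 and 0.260 in the same order. What set the width of the intervals was not tested.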
